A study of Homo sapiens with 28 samples.

Results

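The 10 genes described here were listed as enzymes of serine, one-carbon and cysteine synthesis: ASNS, PSAT1, PHGDH, PSPH, SHMT2, MTHFD2, CTH, CBS, PCK2 and ALDH1L2. Of these, ASNS and PCK2 catalyse steps outside those pathways. All 10 were taken as a list of symbols, drawn up with earlier results of these data known and with no threshold on a measured value. A probe set was assigned to a gene when the array annotation gave it that symbol alone. All 10 genes have a probe set, 22 probe sets in total, of 19775 genes named by a single symbol. For each gene the values are those of its brightest probe set, and 10 of 10 passed the filter on dim genes that left 15448 genes to be tested. RNA of 4 human myeloma cell lines was hybridised to 28 Affymetrix HG-U133 Plus 2.0 arrays. Myeloma is a cancer of plasma cells, and U266, MM.1s, KMS11 and 8226/S are established lines of it. Arsenic trioxide (ATO), an inorganic compound, was applied at 2 µM for 6, 24 and 48 h. Darinaparsin (DAR), an organic compound in which a dimethylarsenic group is joined to glutathione, was applied for 6 and 24 h at 2 µM in 8226/S, at 3 µM in KMS11 and MM.1s and at 4 µM in U266. Every line has 1 array per compound and time, and 2 untreated arrays, numbered control 1 and control 2. All cells grew in RPMI-1640 with serum, L-glutamine and antibiotics, so the controls share that medium, and the untreated arrays are at 0 h, so time in culture and treatment cannot be told apart. ATO arrays are set against control 2 and DAR arrays against control 1 of the same line.

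Serine is made from a glycolytic intermediate in consecutive steps catalysed by PHGDH, PSAT1 and PSPH. In mitochondria SHMT2 passes a carbon unit from serine to folate, MTHFD2 oxidises that unit and ALDH1L2 releases it as carbon dioxide with formation of NADPH. CBS and CTH join the sulfur of homocysteine to the carbon skeleton of serine to give cysteine, a building block of glutathione, to which arsenicals bind. ASNS makes asparagine and PCK2 makes phosphoenolpyruvate in mitochondria, and both, like most of the other genes here, are known targets of ATF4, the transcription factor of the amino acid and stress response.

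The promoter of ASNS is the classic example of that regulation: it carries a C/EBP-ATF response element. RefSeq promoter windows (GRCh38.p14, 300 bases each) were at hand for 7 of the 10 genes, in 10 windows, with none for SHMT2, PSPH and ALDH1L2. The motifs below were looked for on both strands: TGATGNAA, the core of the C/EBP-ATF element; TGACNNNGC, the core of the antioxidant response element; and CACGTG, the E-box. TGATGNAA was found in 1 of the 7 genes, ASNS, that is in 1 of the 10 windows, and in 3.62% of all 35116 windows. TGACNNNGC was found in 2 genes, MTHFD2 and CBS, that is in 2 of the 10 windows, against 13.3% of all windows. CACGTG was found in 0 of the 10 windows against 7.26%. The 150 bases before the start site are shown for ASNS and CBS, because each holds a match there, and for CTH, because it had the largest mean change and no match. The sequences are written 5′ to 3′ on the strand of the gene, with the match in capitals. ASNS lies on the minus strand at chr7:97872409-97872558 and its match begins at position -68 from the start site. CBS lies on the minus strand at chr21:43076378-43076527, with its match at -83 on the opposite strand. CTH lies on the plus strand at chr1:70411118-70411267.
ASNS: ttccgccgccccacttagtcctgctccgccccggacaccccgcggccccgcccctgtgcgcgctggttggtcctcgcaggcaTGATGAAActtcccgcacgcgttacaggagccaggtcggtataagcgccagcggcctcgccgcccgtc
CBS: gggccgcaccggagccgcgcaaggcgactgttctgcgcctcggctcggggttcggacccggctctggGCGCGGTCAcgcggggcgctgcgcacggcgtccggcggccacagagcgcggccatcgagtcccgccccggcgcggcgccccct
CTH: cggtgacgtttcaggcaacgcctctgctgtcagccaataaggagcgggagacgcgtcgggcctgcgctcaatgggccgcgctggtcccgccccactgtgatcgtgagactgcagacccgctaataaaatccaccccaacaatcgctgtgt
A match describes letters in a window, and its absence says only that those letters are not there.

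The arrays form 2 sets that the labels do not name: control 1 with the DAR arrays (12 arrays, median signal 65.5 to 108.7) and control 2 with the ATO arrays (16 arrays, median signal 110.9 to 147.3). For 20 of 20 treated arrays the nearer control of the same line was the one in its own set. The plasma cell genes SDC1, TNFRSF17, IRF4, PRDM1 and XBP1 were above the array median on 28 of 28 arrays, and MZB1 on 26. Markers of other cells were not uniformly dim: of 28 arrays, those of fibroblasts (COL1A1, COL1A2 and DCN) were above the median on 22, 20 and 21, and those of epithelium (KRT8, EPCAM and CDH1) on 28, 14 and 9. The T cell genes CD2, CD3E and CD3D were above it on 20, 15 and 2 arrays, the monocyte genes CSF1R, LYZ and CD14 on 11, 3 and 0, and the B cell genes PAX5 and MS4A1 on 10 and 7. Their part in the results was not tested. Changes are given on the log2(signal + 29) scale as the mean over the 4 lines ± standard error (SE). The error comes from the residual spread of all treatments in limma, p-values are adjusted by the Benjamini-Hochberg method over the 15448 genes, and a gene is called, and said to have risen or fallen, at an adjusted p under 0.05. With 1 array per line and treatment, the p-values rest on a spread pooled over lines, times and both compounds. The fit counts the times of a line as independent, although they share a control. It thus does not measure agreement between lines in a single comparison. The standard deviation between lines was 1.15 for PHGDH at 48 h and 0.85 for PSAT1 at 6 h of ATO, and 0.31 and 0.20 at 6 h of DAR. The labels do not say whether arrays of a line came from separate cultures. Signal per array is compared within a gene only.

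Enzymes of the set rose after both compounds, and 0 of 10 fell against control at any time. After ATO 6 of 10 rose at 6 h (PSAT1, PHGDH, MTHFD2, CTH, PCK2 and ALDH1L2), 4 at 24 h (PSAT1, PHGDH, CTH and PCK2) and 7 at 48 h (the 6 genes of 6 h and CBS). The share of all tested genes that rose was 3.75% at 6 h, 2.74% at 24 h and 6.4% at 48 h. After 6 h of DAR 6 of 10 rose (ASNS, PHGDH, CTH, CBS, PCK2 and ALDH1L2) against 6.86% of all genes. After 24 h of DAR 0 of 10 passed in limma, against 0.492% of all genes that rose, and 2 of the 10 (CTH and PCK2) had an unadjusted p under 0.05. The median change of the 10 was 0.64, 0.61 and 0.80 at 6, 24 and 48 h of ATO and 0.81 and 0.19 at 6 and 24 h of DAR, where the medians of all genes lay between -0.000 and 0.056. Without the cell line in the fit limma called 0 of 10 in each comparison. That fit called few of the 15448 genes: 30, 15 and 18 at 6, 24 and 48 h of ATO and 47 and 0 at 6 and 24 h of DAR. Median centring ended the calls of PHGDH and MTHFD2 at 6 h, of PSAT1 and PHGDH at 24 h and of MTHFD2, CBS and ALDH1L2 at 48 h of ATO, and of CBS and ALDH1L2 at 6 h of DAR. Pooling both controls of a line ended those of MTHFD2 and ALDH1L2 at 6 and 48 h and of PSAT1 at 24 h of ATO, and of CBS at 6 h of DAR. It also added calls: CBS rose at 6 and 24 h of ATO, and 8 of 10 rose at 6 h of DAR, against 1128 of all 15448 genes. Of the 200 differences between a treated array and its control, 173 were above 0. In these bulk samples fewer cells that express a gene and less RNA per cell cannot be told apart.

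**Figure D1:**
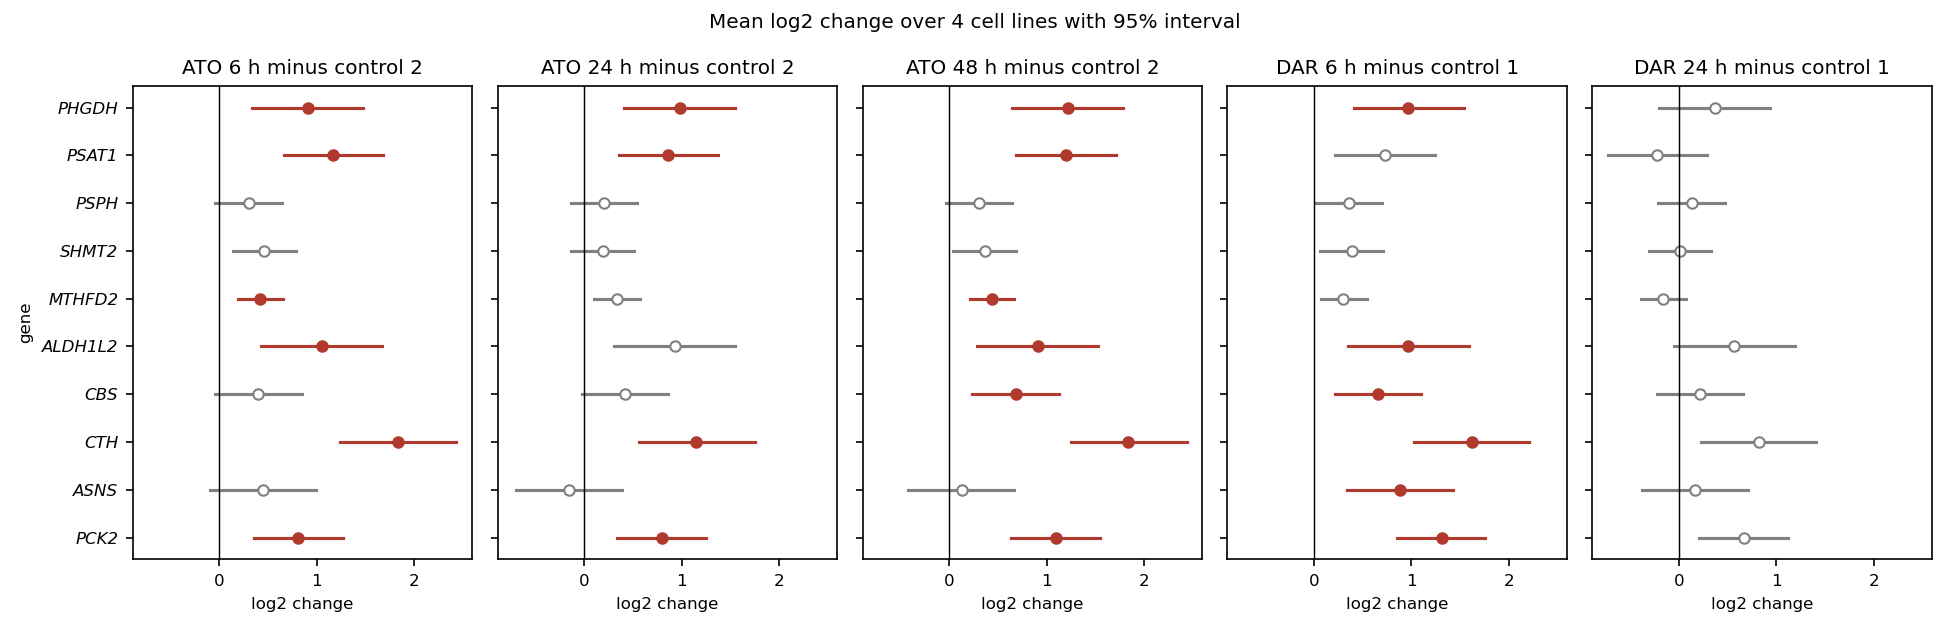
Mean log2 change over the 4 lines with its 95% interval (x axis) for each of the 10 genes (y axis), with 1 panel for each compound and time. Filled red points passed an adjusted p of 0.05. All points lie above 0 at 6 h of either compound, and at 24 h of DAR no point is red.

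PHGDH, the enzyme that commits carbon to serine, was read at 5258, 1726, 972 and 262 on the control 2 arrays of U266, MM.1s, KMS11 and 8226/S, the order of lines used in each sentence from here on. After 6 h of ATO its signal was 8007, 1783, 3157 and 696. At 24 h it was 8165, 2283, 2965 and 695, and at 48 h 5485, 2327, 4078 and 1472. The treated arrays of KMS11 and 8226/S all stood above their control by at least 1.32 log2 units, and the smallest differences were in MM.1s at 6 h and U266 at 48 h. PHGDH rose by 0.91 ± 0.27 at 6 h, 0.98 at 24 h and 1.22 at 48 h (adjusted p = 0.0484, 0.038 and 0.00507). From control 1 levels of 4146, 1152, 735 and 398 the signal went to 7282, 2264, 2009 and 672 after 6 h of DAR and to 7052, 1658, 594 and 575 after 24 h. Every line was higher at 6 h and KMS11 was lower at 24 h. The rise at 6 h was 0.97 ± 0.27 (adjusted p = 0.0188), and the 24 h value of 0.37 did not pass (adjusted p = 0.568). The ATO calls at 6 and 24 h were lost whichever line was left out (adjusted p 0.0579 to 0.297). The call at 48 h was lost without KMS11 (0.0609) or 8226/S (0.0771), and the DAR call without MM.1s (0.0747) or KMS11 (0.0819).

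PSAT1, the aminotransferase of the next step, had control 2 signals of 8240, 7326, 2894 and 2703. After 6 h of ATO these were 14549, 8071, 10284 and 10216. Later arrays read 14558, 9902, 7025 and 5176 at 24 h and 10502, 11529, 11701 and 9467 at 48 h. Each of the 12 treated arrays was above its own control, and the differences were larger in KMS11 and 8226/S than in MM.1s at each time. PSAT1 rose by 1.17 ± 0.25 at 6 h, 0.86 at 24 h and 1.20 at 48 h (adjusted p = 0.00477, 0.0412 and 0.00229), or 2.25-, 1.82- and 2.3-fold. On the DAR side the signal went from 13964, 8861, 2763 and 4217 to 21421, 12765, 5406 and 7465 at 6 h and to 12902, 10021, 1364 and 4388 at 24 h. The 6 h value of 0.73 ± 0.25 fell just short of the threshold (adjusted p = 0.0505), although all 4 lines were higher. The second, dimmer PSAT1 probe set passed at that time with 1.13 ± 0.27 (adjusted p = 0.00687, over all probe sets). At 24 h the value was -0.22, with KMS11 at -1.0. The call at 48 h of ATO was kept whichever line was left out. At 6 h it was lost without 8226/S (0.93, adjusted p = 0.0728), and at 24 h whichever line was left out (adjusted p 0.0626 to 0.159).

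PSPH, the phosphatase that releases serine, did not pass in any comparison with control. Its differences ran from -0.38 (MM.1s, 6 h of ATO) to 0.92 (U266, 6 h of ATO), and its mean changes from 0.13 to 0.36. The second-brightest PSPH probe set rose by 0.99 ± 0.24 at 6 h of DAR (adjusted p = 0.00678, over all probe sets), where the brightest one gave 0.36. The 2 probe sets thus disagree on the size of the change. PSPH has near-identical pseudogene copies that the probes may also bind, so its values are uncertain.

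**Figure D2:**
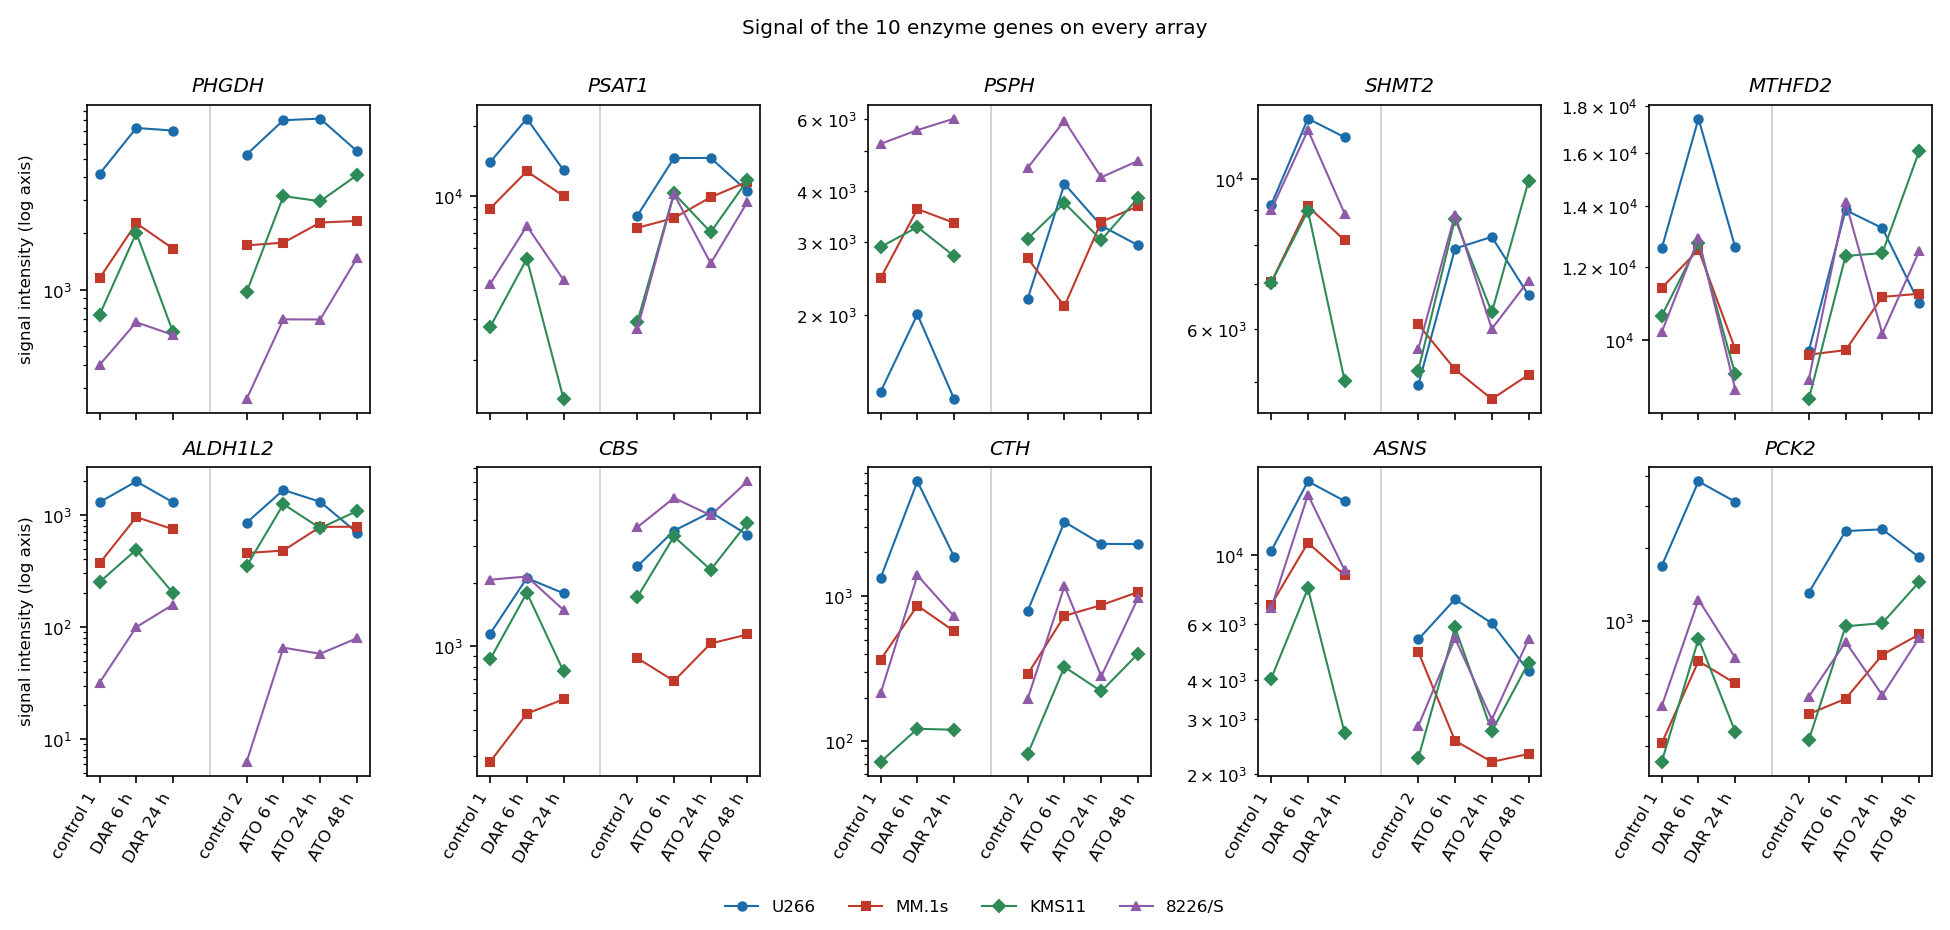
Signal on a log axis (y) for each of the 10 genes, 1 panel per gene, on every array. Arrays are ordered along x by compound and time, and points are coloured by cell line. CTH on the treated arrays lies above the matching control in all 4 lines, and ASNS on the ATO arrays of MM.1s lies below it.

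Among the mitochondrial folate enzymes, MTHFD2 was bright on every array, at 8620 to 17429. Control 2 signals of 9729, 9636, 8620 and 9053 stood at 13854, 9748, 12347 and 14146 after 6 h of ATO. At 48 h they were 10972, 11228, 16058 and 12491. All of these arrays were above their control, by 0.02 (MM.1s, 6 h) to 0.90 (KMS11, 48 h). MTHFD2 rose by 0.42 ± 0.11 at 6 h (adjusted p = 0.0244) and 0.44 at 48 h (adjusted p = 0.0126), while 0.34 at 24 h did not pass (adjusted p = 0.0879). DAR gave 0.30 at 6 h (adjusted p = 0.0785) and -0.16 at 24 h (adjusted p = 0.546). A second, dimmer MTHFD2 probe set did not pass at 6 h (0.35) or 48 h (0.15) of ATO, and it gave 0.23 at 24 h of DAR. The 6 h call of ATO was lost without U266 (0.0922), KMS11 (0.147) or 8226/S (0.157), and the 48 h call without KMS11 (0.29, adjusted p = 0.244).

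ALDH1L2, the last enzyme of that branch, was dim in 8226/S, at or below the array median on 6 of its 7 arrays. Control 2 signals of 850, 456, 348 and 6.28 became 1664, 480, 1242 and 65 after 6 h of ATO and 694, 783, 1079 and 79 after 48 h. From control 1 signals of 1294, 369, 251 and 32, those after 6 h of DAR were 1984, 953, 489 and 100. U266 at 48 h of ATO was the exception among these arrays, below its control by -0.28. ALDH1L2 rose by 1.05 ± 0.30 at 6 h and 0.91 at 48 h of ATO (adjusted p = 0.0363 and 0.0499) and by 0.97 at 6 h of DAR (adjusted p = 0.0323). In 8226/S most of these signals lie at or below the array median, so the size of its differences is uncertain. Without 8226/S the changes were 0.92, 0.67 and 0.93. Values of 0.93 at 24 h of ATO and 0.57 at 24 h of DAR did not pass (adjusted p = 0.0758 and 0.393). The other, dimmer ALDH1L2 probe sets passed at none of these times. They gave 0.86 and 0.53 at 6 h and 0.83 and 0.06 at 48 h of ATO, and 0.41 and 0.50 at 6 h of DAR. The 6 h call of ATO was lost without U266 (0.0692), KMS11 (0.287) or 8226/S (0.111). Without MM.1s, KMS11 or 8226/S in turn, the call at 48 h was lost (0.126, 0.303 and 0.19), as was the DAR call (0.157, 0.0861 and 0.078).

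SHMT2, which feeds both of them, passed in no comparison with control. It was nearest at 6 h of ATO (0.46 ± 0.16, adjusted p = 0.0797), where U266, KMS11 and 8226/S stood at 0.66 to 0.74 and MM.1s at -0.22. MM.1s remained below control 2 at 24 and 48 h, and above control 1 after DAR. The 4 lines were close together at 6 h of DAR, between 0.35 and 0.42 (mean 0.39, adjusted p = 0.11).

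CTH, the enzyme that releases cysteine from cystathionine, had the largest mean change of the 10 genes at each time of either compound. Its control 2 signals were 792, 290, 82 and 196. After 6 h of ATO they were 3237, 732, 325 and 1171, after 24 h 2287, 866, 221 and 280, and after 48 h 2280, 1066, 401 and 969. Each of the 12 ATO arrays was higher than its control, with the smallest difference in 8226/S at 24 h (0.46). CTH rose by 1.83 ± 0.29 at 6 h, 1.15 at 24 h and 1.84 at 48 h (adjusted p = 0.000304, 0.0192 and 0.00022), which are 3.56-, 2.22- and 3.59-fold. Control 1 signals of 1334, 365, 72 and 214 went to 6157, 860, 122 and 1389 after 6 h of DAR. After 24 h of DAR they were 1863, 573, 120 and 726, still above control in each line. The rise at 6 h was 1.62 ± 0.29 (adjusted p = 0.000506), largest in 8226/S and U266, and the 24 h value of 0.82 did not pass (adjusted p = 0.18). The calls at 6 and 48 h of ATO and at 6 h of DAR were kept whichever line was left out. At 24 h of ATO the call was lost without U266 (0.128), MM.1s (0.151) or KMS11 (0.0952). A second, dimmer CTH probe set rose at 6 and 48 h of ATO (1.48 and 1.47, adjusted p = 0.0133 and 0.00857). It did not pass at 24 h of ATO (1.10, adjusted p = 0.0821) or at 6 h of DAR (0.98, adjusted p = 0.0653), where KMS11 stood at -0.84, and at 24 h of DAR it gave 0.27. KMS11 is the line where CTH is dimmest, with its control 2 array at or below the array median, so the offset of 29 shrinks its differences most.

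CBS, the enzyme before CTH, rose at 48 h of ATO by 0.69 ± 0.21 (adjusted p = 0.0368) and at 6 h of DAR by 0.66 (adjusted p = 0.0403). Its signals were 2395, 880, 1706 and 3672 on the control 2 arrays and 3387, 1138, 3861 and 6070 after 48 h of ATO. On the control 1 arrays they were 1147, 283, 867 and 2071, against 2109, 479, 1795 and 2145 after 6 h of DAR. The treated arrays were above their control in all lines, by as little as 0.05 in 8226/S after DAR. Control 2 itself read 1.76- to 2.92-fold above control 1, a difference between the untreated arrays that is larger than the change after 48 h of ATO in each line but KMS11. The ATO call was lost without U266 (0.75, adjusted p = 0.0853), KMS11 (0.53, 0.221) or 8226/S (0.67, 0.0869). Its DAR counterpart was lost without U266 (0.59, 0.151), MM.1s (0.65, 0.0747) or KMS11 (0.54, 0.165). Without KMS11 both changes were the smallest of these, and the others stayed near the full values. The second, dimmer CBS probe set did not pass at 48 h of ATO (0.57, adjusted p = 0.166) or 6 h of DAR (0.70, adjusted p = 0.0605). Both CBS calls depended on the scaling or the controls. The DAR value became 0.12 with pooled controls (adjusted p = 0.797), 0.57 with median centring (0.111) and 0.60 with quantile normalization (0.0722), and the ATO call was lost with median centring (0.60, adjusted p = 0.103). Pooled controls moved the ATO values up, to 0.95, 0.97 and 1.23 at 6, 24 and 48 h (adjusted p = 0.0251, 0.0264 and 0.00275).

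PCK2 control 2 signals of 1311, 409, 319 and 483 stood at 2364, 473, 948 and 816 after 6 h of ATO. At 24 h they were 2404, 721, 978 and 490, and at 48 h 1840, 878, 1451 and 847. All 12 ATO arrays were above their control, KMS11 by the most at each time and 8226/S at 24 h by only 0.02. PCK2 rose by 0.81 ± 0.22, 0.80 and 1.10 at 6, 24 and 48 h (adjusted p = 0.0263, 0.0348 and 0.00192). On the control 1 arrays it read 1692, 309, 258 and 441, and after 6 h of DAR 3806, 679, 840 and 1225. All lines were at least 1.07 log2 units higher, and the mean rise of 1.31 ± 0.22 (adjusted p = 0.000294) was kept whichever line was left out. After 24 h of DAR the signals were 3129, 548, 345 and 701 and the value of 0.67 did not pass (adjusted p = 0.152). The 6 h ATO call was lost without U266 (0.0864), KMS11 (0.217) or 8226/S (0.0613), the 24 h call without U266 (0.14), MM.1s (0.138) or KMS11 (0.264), and the 48 h call without KMS11 (0.77, adjusted p = 0.0534).

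ASNS, which makes asparagine from aspartate, was called at 6 h of DAR and not after ATO. Control 1 signals of 10262, 6915, 4030 and 6748 went to 17091, 10899, 7797 and 15486 after 6 h of DAR, and to 14799, 8579, 2698 and 8901 after 24 h. All lines were higher at 6 h, by 0.65 to 1.20, and KMS11 was lower at 24 h. The rise at 6 h was 0.88 ± 0.26 (adjusted p = 0.0261), a call that was lost without U266 (0.0645), KMS11 (0.0576) or 8226/S (0.148). Control 2 signals were 5366, 4901, 2248 and 2843, and those after 6 h of ATO were 7210, 2555, 5861 and 5412. After 24 h they were 6043, 2188, 2737 and 2983, and after 48 h 4256, 2318, 4524 and 5376. MM.1s was below its control by about as much at each time (-0.93, -1.15 and -1.07), whereas KMS11 and 8226/S were above theirs at each time. The means of 0.45, -0.16 and 0.13 at 6, 24 and 48 h did not pass (adjusted p = 0.395, 0.843 and 0.834), and their 95% intervals ran from -0.10 to 0.99, -0.70 to 0.39 and -0.42 to 0.67. ASNS was lower on control 2 than on control 1 in each line, at 0.424- to 0.71-fold, so the ATO and DAR arrays start from different untreated levels.

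**Figure D3:**
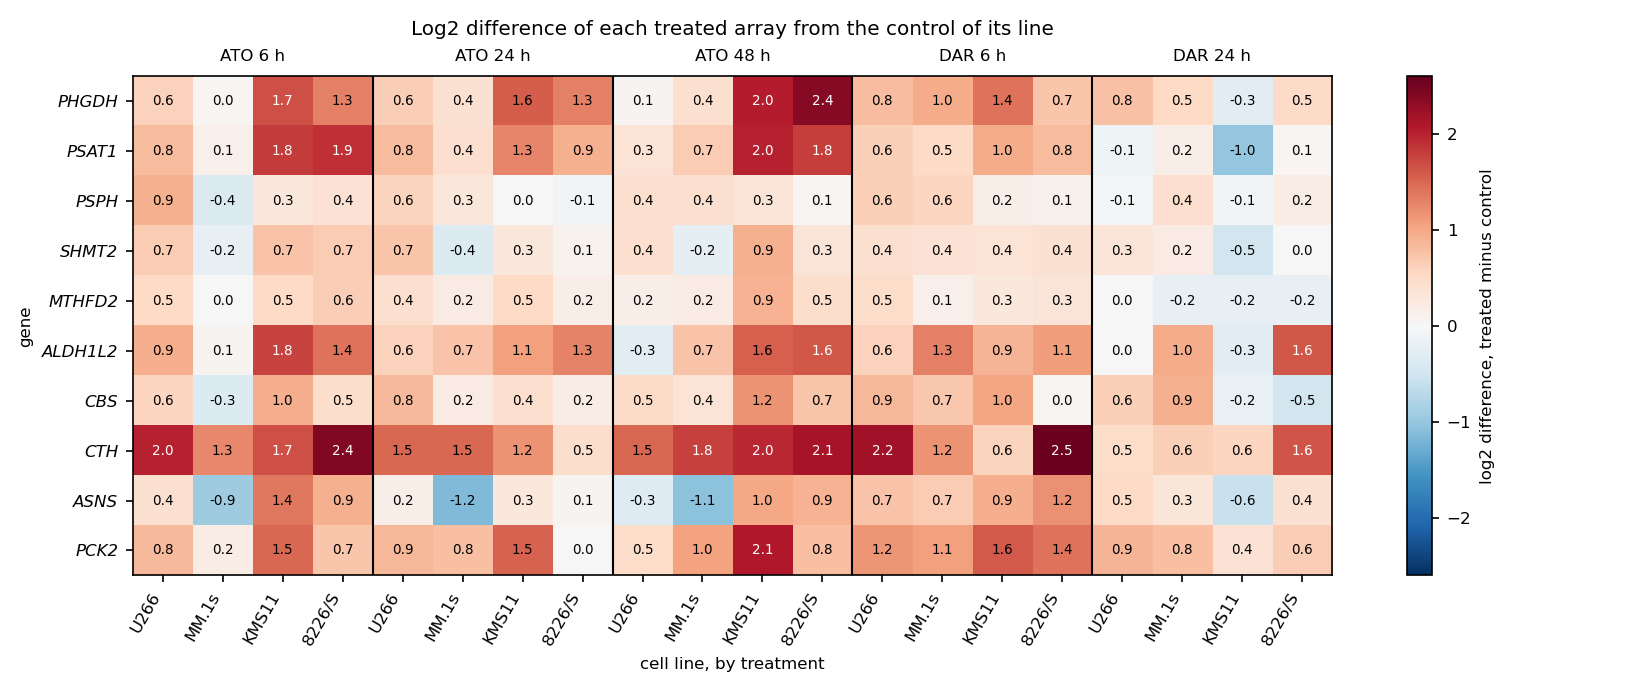
Log2 difference between each treated array and the control of its line in the same array set, with the 10 genes in rows and the 20 treated arrays in columns. Red is higher and blue lower than control. ASNS in MM.1s after ATO and PSAT1 in KMS11 after 24 h of DAR are the darkest blue cells, near -1, and CTH is red in all 20 arrays.

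The enzymes stood lower at 24 h of DAR than at 6 h. The mean difference between those times was below 0 for 10 of 10 genes, with a median of -0.53 against -0.004 over all genes. It passed for PSAT1, which fell by 0.95 ± 0.25 (adjusted p = 0.017), and for MTHFD2, which fell by 0.46 ± 0.11 (adjusted p = 0.0117), so 2 of 10 fell against 3.66% of all genes. MTHFD2 differed by -0.55 to -0.36 in the 4 lines, while PSAT1 ranged from -1.96 in KMS11 to -0.35 in MM.1s. The second, dimmer MTHFD2 probe set did not pass in limma (-0.02, adjusted p = 0.972, over all probe sets), whereas that of PSAT1 did (-1.07, adjusted p = 0.0163). Both calls were lost without KMS11 (PSAT1 -0.61, adjusted p = 0.179; MTHFD2 -0.46, adjusted p = 0.0507) or without 8226/S (PSAT1 -1.01, adjusted p = 0.05; MTHFD2 -0.43, adjusted p = 0.0677). With pooled controls PSAT1 and MTHFD2 did not pass in limma either (adjusted p = 0.202 and 0.108). The second-brightest PSPH probe set fell by 0.91 ± 0.24 (adjusted p = 0.019, over all probe sets), where the brightest gave -0.23. Among the lines KMS11 went furthest: after 24 h of DAR 2 of 10 genes were above control there, with a median of -0.25, against 7 to 9 of 10 in the other lines. The time comparisons within ATO called 0 of 10 genes in limma. At 24 h against 6 h, 0.453% of all genes passed and 2 of the 10 had an unadjusted p under 0.05, ASNS (-0.60) and CTH (-0.68). At 48 h against 24 h 0% of all genes passed and CTH alone of the 10 (0.69) had an unadjusted p under 0.05. At 48 h against 6 h 3.81% of all genes passed and 0 of the 10 had an unadjusted p under 0.05.

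**Figure D4:**
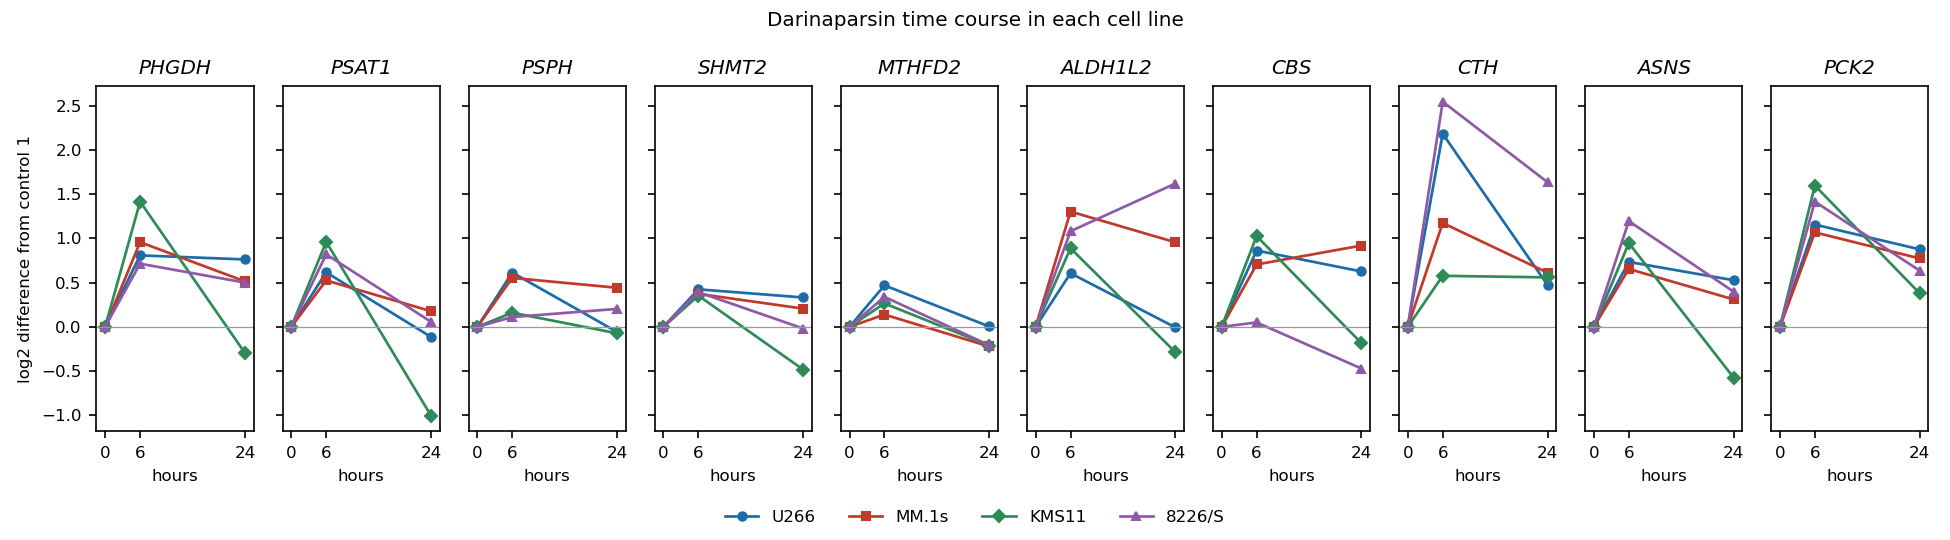
Log2 difference from control 1 (y axis) at 0, 6 and 24 h of DAR (x axis) for each gene, with 1 line per cell line. PSAT1 in KMS11 goes from 0.96 at 6 h to -1.0 at 24 h, and CTH in 8226/S from 2.54 to 1.64.

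The 2 compounds are set side by side without a test, since the doses differ in 3 of the 4 lines and each compound has its own control. At 6 h PCK2 was at 1.31 after DAR and 0.81 after ATO, ASNS at 0.88 and 0.45, CTH at 1.62 and 1.83, and PSAT1 at 0.73 and 1.17. These gaps depended on the controls and the probe set. With pooled controls PCK2 was at 1.26 after DAR and 0.86 after ATO, ASNS at 1.32 and 0.01, and CTH at 1.75 and 1.71. The second, dimmer PSAT1 probe set gave 1.13 after DAR and 1.29 after ATO. At 24 h the median of the 10 genes was 0.19 after DAR and 0.61 after ATO. In 8226/S, where both compounds were given at 2 µM, CTH was at 2.54 after DAR and 2.41 after ATO at 6 h, PSAT1 at 0.82 and 1.91, and PCK2 at 1.42 and 0.72. Those are single arrays, each set against the control of its own array set. In 8226/S PSAT1 read 4217 on control 1 and 2703 on control 2. The differences after DAR and ATO thus start from unlike untreated levels at the equal dose too.

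The response differed in size among the lines in these arrays, but no difference among lines passed. At 6 h of ATO all 10 genes were above control in U266, KMS11 and 8226/S, with medians of 0.74, 1.43 and 0.82, while in MM.1s 6 of 10 were, with a median of 0.03. CTH was the gene that stood furthest above control in MM.1s at that time (1.25). At 6 h of DAR 10 of 10 were above control in each of the 4 lines, with medians of 0.68 to 0.92. A limma test of the response by line over both compounds called 0 of 10 genes, where 0.0518% of all genes passed, and 0 of the 10 had an unadjusted p under 0.05. On the ATO arrays alone, a test added after the data were seen, 0.155% of all genes and again 0 of the 10 passed. There 4 of the 10 had an unadjusted p under 0.05: ASNS (0.00286, adjusted p = 0.274), PHGDH (0.0157, adjusted p = 0.437), SHMT2 (0.0322, adjusted p = 0.521) and PSAT1 (0.0395, adjusted p = 0.541).

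Before treatment 8 of the 10 genes differed among the lines, against 52% of all genes (limma, control number in the fit). Without the control number 6 of 10 did, against 16.9% of all genes. The adjusted p-values in this paragraph come from the fit with the control number, as an F test over all lines on the measured signals. They test no single pair of lines and no bounded value. ALDH1L2 was at least 8.46-fold higher in U266 than in 8226/S (adjusted p = 3.15e-05), a bound that sets both 8226/S controls, which are at or below their array's median, to that median. PHGDH spanned 13.3-fold between the same lines (adjusted p = 1.06e-05). CTH spanned 9.98-fold from U266 down to KMS11 (adjusted p = 8.9e-05), or 8.67-fold with the 1 dim KMS11 control set to its array's median. U266 was the highest line for these 3 genes and for ASNS, PSAT1 and PCK2, as mean of its controls. PSPH ran the other way, highest in 8226/S and lowest in U266 (2.85-fold, adjusted p = 0.000985), and CBS was highest in 8226/S and lowest in MM.1s (5.24-fold, adjusted p = 4.75e-05). For PHGDH, PSPH, CTH and ALDH1L2 no neighbours in the order of lines overlapped in their 2 controls. For ASNS and CBS all 3 pairs of neighbours did, for PSAT1 U266 with MM.1s and 8226/S with KMS11, and for PCK2 MM.1s with KMS11. SHMT2 (1.17-fold, adjusted p = 0.663) and MTHFD2 (1.16-fold, adjusted p = 0.398) did not pass, and all their neighbours overlapped.

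Across the 20 differences the 10 genes varied together to unequal degrees. Of 45 pairs 44 had a correlation above 0, with a median r of 0.539, and these points share controls, lines and array sets. The extremes were PSAT1 with MTHFD2 (0.868) and PHGDH with PSPH (-0.0232). Against the mean of the other members PSAT1 had the highest r (0.865) and PSPH (0.328) and CTH (0.449) the lowest. Outside the set, the genes most like the mean of the 10 over the 20 differences were SESN2 (r = 0.917), an inhibitor of mTORC1 signalling under amino acid shortage, and the tRNA synthetase genes GARS1 (0.901), CARS1 (0.868) and YARS1 (0.827), followed by TRAF6 (0.824), a ubiquitin ligase of immune receptor signalling.

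The neighbouring pathways were read from lists that name no member of the set. Of all tested genes 3.75%, 2.74% and 6.4% rose at 6, 24 and 48 h of ATO, 6.86% at 6 h of DAR and 0.492% at 24 h of DAR. The shares that fell were 2.67%, 2.29% and 5.49% at 6, 24 and 48 h of ATO and 6.37% at 6 h of DAR. Counts of 1 gene in these short lists are not told from those shares. The folate and methionine cycle (15 genes tested) went the other way: 1, 3 and 6 genes fell at 6, 24 and 48 h of ATO and 7 at 6 h of DAR, and 2 rose, at 48 h of ATO. GLDC, the decarboxylase of the glycine cleavage system, fell by 1.38 ± 0.34, 1.46 and 1.89 at 6, 24 and 48 h of ATO (adjusted p = 0.0136, 0.0117 and 0.000717), and with both controls pooled the values at 6 and 24 h did not pass (adjusted p = 0.0819 and 0.0638). MTHFD1, the cytosolic folate enzyme, fell by 0.76 ± 0.16 and TYMS, thymidylate synthase, by 0.67 ± 0.14 at 48 h (adjusted p = 0.00306 and 0.00326). At 6 h of DAR MTRR, which reactivates methionine synthase, fell by 1.08 ± 0.19 and MAT2A, which makes S-adenosylmethionine, by 0.89 ± 0.14 (adjusted p = 0.000485 and 0.000147). In DAR 0 of 15 passed at 24 h. The list's median was -0.30, -0.21 and -0.44 in ATO and -0.47 and -0.19 in DAR.

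Genes of glutathione synthesis and cystine import rose as well. Of 14 genes of glutathione and sulfur amino acids 6, 5 and 9 rose at 6, 24 and 48 h of ATO, 5 rose at 6 h of DAR and 0 passed at 24 h of DAR, while 1 fell at 48 h of ATO and 1 at 6 h of DAR. The list's median was 0.55, 0.50 and 0.67 in ATO and 0.24 and 0.17 in DAR. SLC7A11, the cystine importer, rose by 3.16 ± 0.34 at 6 h of ATO (8.91-fold, adjusted p = 2.2e-06) and by 1.82 at 6 h of DAR (adjusted p = 0.000874). GCLM, a subunit of the first enzyme of glutathione synthesis, rose by 2.29 ± 0.22 at 6 h of ATO (adjusted p = 4.82e-07) and by 1.19 at 6 h of DAR (adjusted p = 0.000884). Between 6 and 24 h of DAR SLC7A11 fell by 1.68 and GCLM by 0.94 (adjusted p = 0.00301 and 0.00955), calls that were lost with pooled controls (0.0522 and 0.0829).

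Among 12 upstream factors tested, 4, 3 and 6 rose at 6, 24 and 48 h of ATO with 1 lower each time, 5 rose at 6 h of DAR and 0 passed at 24 h of DAR. Their median was 0.50, 0.37 and 0.58 in ATO and 0.62 and 0.19 in DAR. TRIB3, a pseudokinase gene induced by ATF4, rose by 1.61 ± 0.24, 1.40 and 1.80 in ATO (adjusted p = 0.000146, 0.000783 and 3.74e-05). CEBPG, a partner of ATF4 on DNA, rose by 0.89 ± 0.15 at 6 h of ATO and 1.31 at 6 h of DAR (adjusted p = 0.000503 and 3.46e-06; the ATO value gave 0.0538 with pooled controls). ATF3, a stress-induced repressor gene, rose by 3.18 ± 0.44 at 6 h of DAR (adjusted p = 3.59e-05) and then fell by 2.64 between 6 and 24 h (adjusted p = 0.000491).

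Of 15 cytosolic tRNA synthetases 5, 0 and 7 rose in ATO at 6, 24 and 48 h and 3 at 6 h of DAR, with 1 lower at 24 h and 1 at 48 h of ATO. Their median was 0.24, 0.22 and 0.30 in ATO and 0.10 and -0.00 in DAR. With median centring 3 rose at 6 h and 4 at 48 h of ATO and 2 at 6 h of DAR. With pooled controls 0 rose and 1 fell at 6 h of ATO, 2 rose at 48 h, and 4 rose at 6 h of DAR. CARS1, which charges the cysteine tRNA, rose by 0.62 ± 0.14 at 6 h and 0.71 at 48 h of ATO and by 0.81 at 6 h of DAR (adjusted p = 0.0108, 0.00234 and 0.000566), and with pooled controls both ATO values missed the threshold (0.162 and 0.0604). Of 8 transporters listed with serine and one-carbon transport, not all of which carry those substrates, 1 rose (SLC7A5) and 1 fell (SLC25A1) at 6 h of ATO. SLC25A1, a citrate carrier, was also the 1 that fell at 24 h and was among the 3 that fell at 48 h. With pooled controls its 6 h value changed sign. Pooling moves every ATO time of a gene by the same amount, so its falls at each time depend on the choice of control. In DAR 3 transporters rose at 6 h and 1 at 24 h. The transporters' median was 0.14, -0.16 and -0.37 in ATO and 0.28 and -0.08 in DAR. With pooled controls it was 0.26, 0.12 and -0.01 in ATO and 0.00 and -0.22 in DAR, and 3, 1 and 2 transporters rose in ATO, so the sign at 24 h of ATO turned. SLC1A4, a serine carrier, rose by 0.57 ± 0.16 at 6 h of DAR (adjusted p = 0.0171), a call lost with median centring (0.084) and with pooled controls (0.272). SFXN1, the mitochondrial serine carrier, fell by 0.60 ± 0.16 at 48 h of ATO (adjusted p = 0.0177). Of 9 genes of aspartate, glutamate and proline synthesis 0, 1 and 3 rose in ATO, with 1 lower at 48 h, and 1 rose and 2 fell at 6 h of DAR. The median of these 9 was 0.01, -0.03 and 0.07 in ATO and -0.06 and -0.11 in DAR, with signs that turned under other scalings or controls. GLUL, glutamine synthetase, rose by 0.84 ± 0.18 and 1.03 at 24 and 48 h of ATO (adjusted p = 0.00751 and 0.000641).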

How the data were processed

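Total RNA of 28 samples was hybridised to Affymetrix HG-U133 Plus 2.0 arrays. The deposited values are intensity values made by the authors with GCOS, per the submitters' processing notes, which name no version. They were taken as log2 of signal plus 29, with no further scaling. Of 54675 probe sets 41097 carried 1 symbol, 1801 several and 11777 none, and 41043 were matched to RefSeq names. A gene was read from its brightest probe set and tested if above the 50th percentile of its array on at least 4 arrays. limma 3.58.1 in R 4.3.3 (lmFit, eBayes with a variance trend) fitted all 28 arrays, with a baseline for each line in each control set and 5 treatments. The line thus pairs the arrays: deviations of same-line arrays from their group means correlated at 0.742 on average (lowest 0.607). The highest correlation between 2 arrays was 0.972. The simulated data on which the fit was tested had independent noise and no response particular to a line. That test therefore says nothing on responses that differ between lines. The members, lists and motifs were chosen with earlier results of these data known. All 10 members are named, and from each list at most 3 called genes per comparison with the smallest adjusted p. Alternatives were pooled controls, no line baseline, median centring, quantile normalization, other offsets, no filter, the mean of probe sets, every probe set, no variance trend and leaving out each line. The number of arrays limits the precision.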

Additional observations from a re-analysis of the deposited data

Results flagged for a closer look

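In 4 of 50 groups of 4 lines 1 line stood apart by Dixon's gap test at its 95% critical value, and chance gives about 1 in 20 groups. SHMT2 at 6 h of ATO was at -0.22 in MM.1s and 0.66 to 0.74 in the other lines. ASNS at 24 h of ATO was at -1.15 in MM.1s and 0.07 to 0.28 elsewhere. MTHFD2 at 24 h of DAR was at 0.00 in U266 and -0.22 to -0.21 elsewhere. CTH at 24 h of DAR was at 1.64 in 8226/S and 0.47 to 0.61 elsewhere. The change from 6 to 24 h of DAR itself passed the limma test for PSAT1 (-0.95, adjusted p = 0.017, lower in 4 of 4 lines) and MTHFD2 (-0.46, adjusted p = 0.0117, lower in 4 of 4 lines). The second, dimmer MTHFD2 probe set gave -0.02 for that change. With pooled controls neither gene passed in limma (adjusted p = 0.202 for PSAT1 and 0.108 for MTHFD2).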

How the results depend on the processing

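No member's value changed sign from a call under any alternative run. Counts of members called are given in the order ATO 6, 24 and 48 h, DAR 6 h and the change from 6 to 24 h of DAR, which were 6, 4, 7, 6 and 2. Without the replicate block, that is without the line pairing, limma called 0 in each, with 1, 1, 2, 0 and 1 at an unadjusted p under 0.05. Of all 15448 genes it then called 30, 15, 18, 47 and 9. Without the variance trend the counts were 2, 1, 5, 3 and 1, and with the mean of probe sets 4, 2, 4, 4 and 1. Median centring gave 4, 2, 4, 4 and 2, no filter 5, 2, 6, 5 and 2, and pooled controls 5, 4, 5, 8 and 0. Quantile normalization gave 6, 5, 7, 4 and 2, and at 6 h of DAR it ended the limma calls of CBS (adjusted p = 0.0722) and ALDH1L2 (0.102). Leaving out 1 line gave 1 to 6, 0 to 2, 2 to 7, 2 to 4 and 0 to 2. Over all genes it gave 249 to 807, 202 to 956, 651 to 2003, 1103 to 1842 and 587 to 973 calls. With all lines those counts were 993, 777, 1837, 2043 and 1196. The cause of these shifts was not tested. Median centring moved all genes from 989 higher and 848 lower to 492 and 925 at 48 h of ATO, and from 1059 and 984 to 692 and 1161 at 6 h of DAR. At 24 h of DAR it moved them from 76 and 20 to 41 and 33. Pooled controls moved the median of all genes to 0.140, 0.160 and 0.197 in ATO and -0.100 and -0.078 in DAR. Of 77 values of list genes, chosen for this check after the data were seen, 72 were called with quantile normalization, 67 with median centring and 46 with pooled controls, where SLC25A1 at 6 h of ATO turned from -0.80 to 0.07. ALDH1L2 in 8226/S lies near the background.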
